A study of Mus musculus with 21 samples.

Results

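Of the 21 libraries in the series, 4 make up the comparison described here: 2 of cells labelled Bgn-/- and 2 of wild-type cells, all stimulated with CpG DNA. They were taken by their labels alone and form pairs matched on protein. The first pair received CpG with no protein, and the second received recombinant biglycan before CpG. All 4 come from CD11b+ cells of the unelicited peritoneal cavity of C57BL/6 mice, plated overnight and then moved to serum-free medium. CpG was given at 1 µM for 6 h, and biglycan at 10 µg/mL for 1 h before it. The protocol in the labels gives 10 mice and lists Bgn-/0 and Bgn-/- animals under the Bgn label, since Bgn lies on the X chromosome. The labels do not say which mice a culture well came from, and every genotype was sequenced once per protein and stimulus. The p-values below therefore rest on how far the label difference varied between the pairs without and with biglycan. This spread is pooled over the 2 CpG and the 2 LPS pairs and moderated across genes. Variation between wells and a label difference that depends on biglycan cannot be told apart in it. An exact permutation test of 2 against 2 could not go below p = 0.333. The Bgn label and its cell preparation cannot be told apart. The series asks how biglycan and the related proteoglycan lumican bear on the response of these cells to LPS and CpG.

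CpG DNA is a ligand of TLR9, a receptor of the endosome that Unc93b1 carries there and that signals through Myd88 to NF-kB and interferon regulatory factors. In macrophages this pathway turns on cytokine, chemokine and interferon-stimulated genes. Biglycan, the product of Bgn, is a small leucine-rich proteoglycan of the extracellular matrix, and its soluble form is known as a ligand of TLR2 and TLR4. The peritoneal cavity holds mainly macrophages and B cells, with a small population of mast cells, which store histamine and granule proteases.

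Expression is given as TPM, transcripts as a share of each library scaled to a fixed total and summed per gene, without read counts, so the depth of each library is unknown. The 4 libraries held 55542 to 59404 transcripts above 0. Differences are on the log2(TPM + 1) scale, Bgn label minus wild type, as the mean of the 2 pairs with its standard error (±). They come from limma, fitted to these 4 libraries and the 4 matched LPS libraries, with a Benjamini-Hochberg adjusted p under 0.05 as the threshold. The sort marker held, since Itgam, which codes for CD11b, was at 459.7 and 457 TPM with the Bgn label and at 421 and 491 TPM in wild type. The macrophage genes Lyz2 (31061 and 33688 against 31067 and 29919 TPM) and Adgre1 (578 and 586 against 551 and 609 TPM) were abundant in all 4 libraries. Gata6, the factor that defines large peritoneal macrophages, was low, at 5.77 and 6.91 against 4.46 and 4.73 TPM. Measured as an absorbance ratio at 260 and 230 nm, the RNA of the Bgn label gave 2.81 and 2.73 and that of wild type 3.23 and 3.8. The library concentrations were 280.2 and 230.53 against 190.73 and 137.06 nM, and the part of either measure in the results was not tested. Of the unstimulated libraries cited below for their levels, the Bgn-labelled one given biglycan alone stood apart. It had 40231 transcripts above 0 and was closer to the untreated Lum-labelled library, with a median absolute log2 difference of 0.10 over genes, than to the untreated Bgn-labelled one, at 0.25.

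Bgn, the targeted gene (chromosome X, 73483602 to 73495933, plus strand, GRCm38), was examined first, to see whether its RNA follows the labels. It was at 3.49 and 3.03 TPM in the libraries labelled Bgn-/-, without and with biglycan, and at 0.961 and 0.542 TPM in wild type. Both libraries of the knockout label were thus above both wild-type libraries, by 1.29 ± 0.20 (limma adjusted p = 0.0479). This call was kept in 6 of 20 alternative settings and lost in 14, among them median-of-ratios scaling (limma adjusted p = 0.114) and leaving out any 1 of the 4 libraries, with differences from 0.52 to 2.02 and limma adjusted p from 0.0161 to 0.352. The wild-type library given lumican and CpG was at 1.52 TPM, and the Lum-labelled CpG libraries were at 0.0325 and 0 TPM. Transcript ENSMUST00000033741.14 of Bgn was at 1.20 and 0.897 TPM with the Bgn label against 0.610 and 0.330 TPM in wild type. Transcript ENSMUST00000183174.1 was at 0.939 and 1.31 TPM against 0 in both, but at 0.685 TPM in the wild-type library given lumican and CpG. Without a stimulus, this second transcript was at 0.332 TPM in untreated wild type and 0 TPM in the untreated Bgn-labelled library. Lum, the lumican gene, was at 0.0334 and 0 TPM with the Bgn label and 0.273 and 0.354 TPM in wild type, under the mean of 1 TPM needed for a test, and at 2.88 and 3.93 TPM in the Lum-labelled CpG libraries. Without a stimulus, Bgn was at 0.948 TPM in the untreated Bgn-labelled library, 0 TPM in the one given biglycan alone, and 0.796 TPM in untreated wild type. In the 4 CpG libraries Bgn RNA goes against the knockout label, so every direction below is that of the libraries labelled Bgn-/-. The labels do not say which part of Bgn was removed, so RNA from a partly deleted gene cannot be told apart from RNA of an intact one. Under LPS, Lum was at 0.105 and 0.134 TPM with the Bgn label and 14.08 and 12.04 TPM with the Lum label. Bgn was at 0.758 and 1.178 TPM against 0.0322 and 0 TPM in the same libraries. The matched wild-type libraries held 1.403 and 0.718 TPM of Lum and 0.33 and 0.327 TPM of Bgn. Unstimulated, the Bgn-labelled library given biglycan alone held 1.09977 TPM of Lum, and the untreated Lum-labelled one 1.715 TPM of Bgn. Whether the Bgn and Lum labels were exchanged was not tested. Within 1 Mb of Bgn, 38 of 90 annotated genes were tested and Bgn was the 1 gene called, where 1.27% of all tested genes were called.

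Limma called 147 of 11550 genes (1.27%), 49 higher with the Bgn label (0.424%) and 98 lower (0.848%). Changes over 2-fold were seen for 20 of the higher and 45 of the lower genes, and the median over all genes was 0.04. Each of the 147 had the same sign in both pairs and both Bgn-labelled values outside the wild-type range, which holds for 60.2% and 39.9% of all genes. Between libraries, the median absolute difference over genes was 0.10 within the Bgn label and 0.17 within wild type, against 0.15 in the pair without protein and 0.13 in the pair with biglycan. The typical gene therefore differed no more between the labels than between the wild-type libraries. Median-of-ratios scaling moved the split from 49 higher and 98 lower to 12 and 62, or from 66.7% to 83.8% lower. Leaving out any 1 of the 4 libraries leaves 1 complete pair, and the estimate is then that pair's difference. It is the same whichever library of the other pair is left out. The median over all genes was 0.083 in the pair without protein and -0.0044 in the pair with biglycan. Most of the 147 calls were lost in each of these fits, which cannot show the part of a single library.

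**Figure D1:**
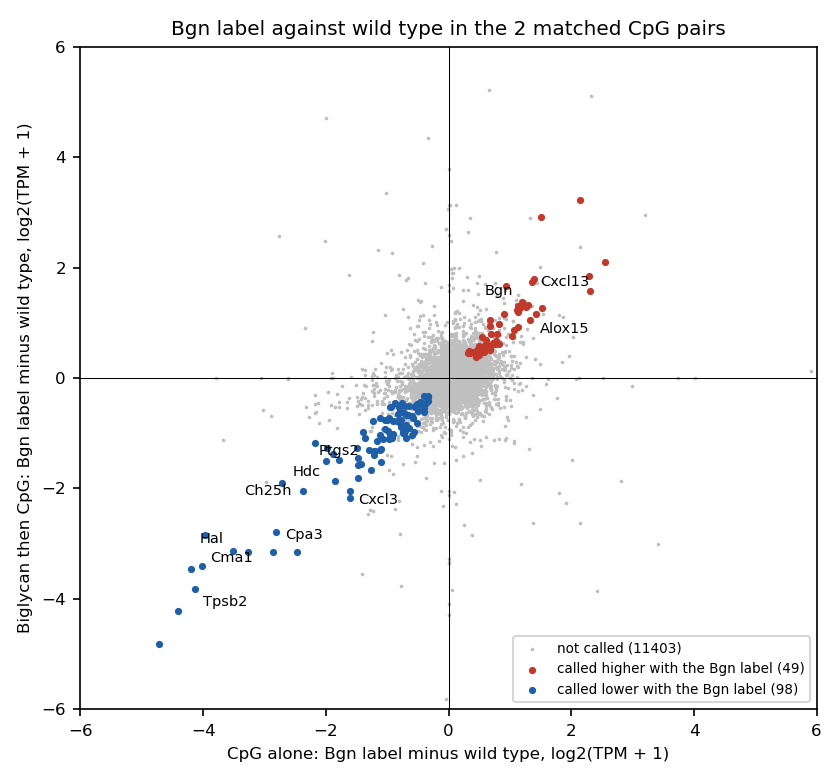
Log2(TPM + 1) difference of the Bgn label from wild type for each of 11550 tested genes, with CpG alone on the x axis and biglycan then CpG on the y axis. Red points are the 49 genes called higher and blue points the 98 called lower, all of them below 0 in both pairs or above 0 in both, with Tpsb2, Cma1 and Hal among the lowest in both pairs.

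Among the coding genes named by rule, those of mast cells had the largest falls with the Bgn label. Tpsb2, a tryptase stored in mast cell granules (chromosome 17, 25366305 to 25369098, plus strand), was at 1.47 and 1.30 TPM in the Bgn-labelled libraries and at 42.4 and 31.6 TPM in wild type. Both wild-type libraries were far above both Bgn-labelled ones, 28.8-fold and 24.4-fold in the 2 pairs, with a log2 difference of -3.98 ± 0.15 (limma adjusted p = 0.00117). Tpsab1, a second tryptase encoded nearby (chromosome 17, 25343245 to 25345562, minus strand), was at 0.276 and 0.630 TPM against 22.5 and 16.8 TPM, a difference of -3.83 ± 0.21. The chymase Cma1 was at 1.17 and 1.33 TPM against 34.2 and 23.8 TPM (-3.71 ± 0.20). Another chymase, Mcpt4, was at 0.612 and 1.13 TPM against 24.2 and 14.3 TPM (-3.40 ± 0.26). Cma1 (chromosome 14, 55941451 to 55944675, minus strand) and Mcpt4 (chromosome 14, 56059629 to 56062313, minus strand) lie in the same region. In none of these 4 protease genes did a Bgn-labelled library reach a wild-type one, and the labels overlapped in none of the 147 called genes.

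The other mast cell genes followed the proteases. Cpa3, carboxypeptidase A3 of mast cell granules, was at 0.724 and 0.418 TPM against 11.1 and 8.87 TPM, a difference of -2.80 ± 0.16 (limma adjusted p = 0.0012). Tph1, which makes the serotonin precursor, was at 0.351 and 0.866 TPM against 7.91 and 6.01 TPM (-2.32 ± 0.24, limma adjusted p = 0.0118). Il1rl1, the receptor for IL-33, was at 0.260 and 0.602 TPM against 3.97 and 2.85 TPM (-1.62 ± 0.25, limma adjusted p = 0.0461). Hdc, the histidine decarboxylase that makes histamine, was at 1.01 and 1.03 TPM against 6.27 and 6.35 TPM (-1.86 ± 0.10, limma adjusted p = 0.00117). Kit, the receptor of stem cell factor, did not pass, at 0.652 and 0.638 TPM against 1.36 and 2.00 TPM (-0.70 ± 0.27, limma adjusted p = 0.376), nor did the transporter Slc18a2 (-0.46 ± 0.21). The remaining 5 genes of the 15 on the list were under the mean of 1 TPM. They include Fcer1a, a chain of the IgE receptor, at 0 and 0.272 TPM against 2.17 and 1.44 TPM, and Gata2, a factor of the mast cell lineage, at 0.156 and 0.333 TPM against 1.39 and 1.45 TPM. In all, 8 of the 15 were called lower and 0 higher, beside 0.848% of all genes called lower, and several of the 10 tested passed the filter through wild type alone. Summed over the 15 genes, the level was 7.78 and 9.46 TPM with the Bgn label and 161 and 119 TPM in wild type. The list median was -2.76 in the pair without protein and -2.35 in the pair with biglycan, and all 10 tested genes were lower in both pairs. In fits with 1 pair left, some or all of these calls were lost. Such fits give the difference of the remaining pair whichever library is left out, so they cannot show the part of a single library. Fewer mast cells and less RNA per mast cell cannot be told apart in these bulk samples.

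The low mast cell sum was also seen in other libraries that were not given LPS. The third wild-type CpG library, given lumican, summed to 134 TPM for the 15 genes. The Lum-labelled CpG libraries summed to 17.4 and 18.5 TPM, near the Bgn label, with Tpsb2 at 3.47 and 3.89 TPM. Without a stimulus, the Bgn-labelled libraries were at 11.6 TPM untreated and 19.9 TPM with biglycan alone, the wild-type libraries given lumican or biglycan alone were at 124 and 127 TPM, and the untreated wild-type library, unlike the other wild-type ones, was at 7.70 TPM. Under LPS the sum was not low, at 159 and 143 TPM with the Bgn label and 218 and 232 TPM in wild type. Hdc made up 153 and 136 TPM of it with the Bgn label and 128 and 126 TPM in wild type. Tpsb2 was at 0.816 and 1.62 TPM with the Bgn label under LPS and 25.9 and 29.0 TPM in wild type (-3.70, limma adjusted p = 0.0019).

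Hal, the histidine ammonia lyase (chromosome 10, 93488768 to 93519304, plus strand), fell as far as the mast cell genes, from 27.1 and 28.6 TPM in wild type to 1.46 and 2.36 TPM with the Bgn label, a difference of -3.33 ± 0.15 (limma adjusted p = 0.00117). It did not follow them elsewhere, since the Lum-labelled CpG libraries held 447 and 359 TPM of Hal. Unstimulated, the Bgn-labelled libraries held 2.59 TPM untreated and 183 TPM with biglycan alone, and untreated wild type 4.44 TPM. Hal and Hdc both code for enzymes that act on histidine. Lum lies on the same chromosome as Hal (chromosome 10, 97565128 to 97572703, plus strand). Whether that position bears on the Hal values was not tested.

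**Figure D2:**
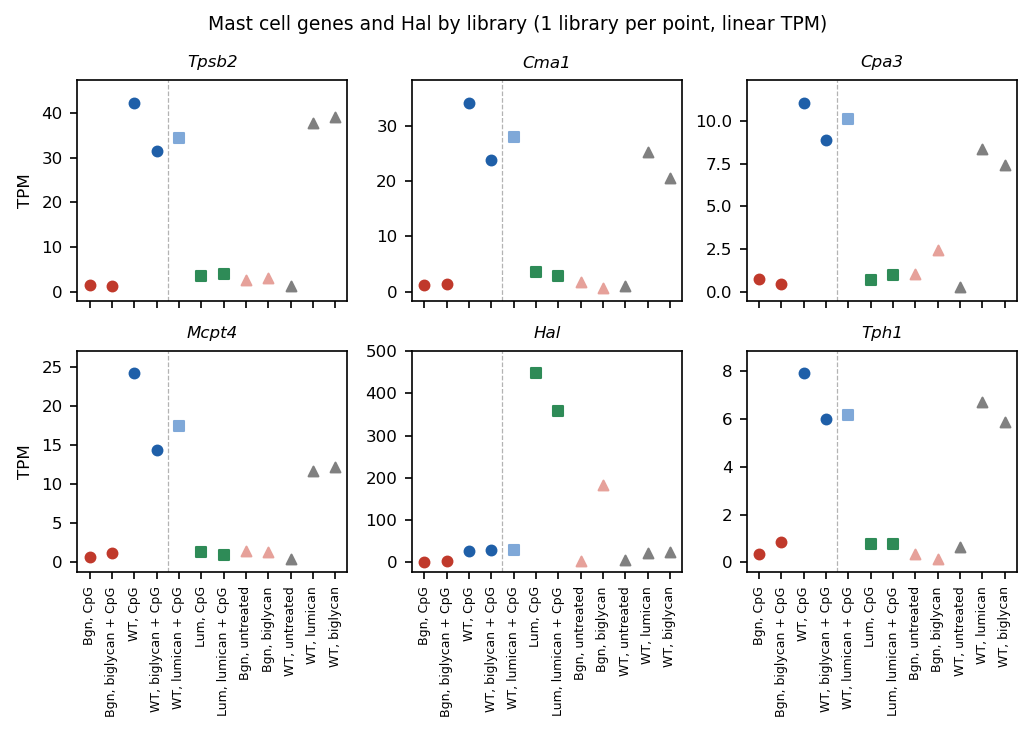
TPM on linear axes by library, 1 library per point, for 5 mast cell genes and Hal, with the 4 compared libraries left of the dashed line and other CpG-treated and unstimulated libraries right of it. For the mast cell genes, both Bgn-labelled CpG libraries lie near 0 and the 3 wild-type CpG libraries well above, and Hal departs from the mast cell genes in the Lum-labelled libraries, at 447 and 359 TPM.

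The promoter of Cpa3 is shown because Cpa3 has a window in the reference and stands for the mast cell genes. The sequence is from RefSeq (GRCm38.p6), 300 bases at chr3:20242132-20242431 read 5′ to 3′ on the minus strand, from 250 bases before the start to 50 after. Capitals mark AGATAA, searched on both strands, whose first base lies 46 bases before the start.
Cpa3: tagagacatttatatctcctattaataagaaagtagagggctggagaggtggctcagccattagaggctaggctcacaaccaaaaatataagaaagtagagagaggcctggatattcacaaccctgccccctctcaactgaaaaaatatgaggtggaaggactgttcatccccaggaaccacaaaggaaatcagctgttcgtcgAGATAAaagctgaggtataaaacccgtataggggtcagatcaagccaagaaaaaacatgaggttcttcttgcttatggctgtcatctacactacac
Of 8 windows for 6 of the 8 mast cell genes called lower, 3 held AGATAA (37.5%), against 11.2% of all 32851 windows of this length. A match describes the sequence and not a bound site.

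Of 21 chemokine genes tested, 9 were lower with the Bgn label, Cxcl3 by the most. Cxcl3, a neutrophil attractant (chromosome 5, 90786103 to 90789600, plus strand), was at 225 and 271 TPM with the Bgn label and 686 and 1125 TPM in wild type. Wild type was 3.06-fold and 4.16-fold higher in the 2 pairs, a difference of -1.83 ± 0.11 (limma adjusted p = 0.0012). Its neighbour Cxcl2 was at 269 and 387 TPM against 515 and 812 TPM (-1.001 ± 0.09, limma adjusted p = 0.00612), and Cxcl5, of the same cluster but not on the chemokine list, at 29.9 and 29.9 TPM against 82.6 and 89.7 TPM (-1.50 ± 0.08). For all 3 genes both Bgn-labelled libraries were below both wild-type ones, as for every gene called lower. Cxcl1, also called lower, was at 90.4 and 122 TPM against 142 and 229 TPM (-0.77 ± 0.09).

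Chemokines of the CC family that attract monocytes and lymphocytes were lower too. Ccl2 was at 8.65 and 5.86 TPM with the Bgn label and 25.8 and 19.6 TPM in wild type (-1.53 ± 0.14, limma adjusted p = 0.0078). Ccl7 showed the same order at a lower level, 2.54 and 1.38 TPM against 9.01 and 4.73 TPM (-1.38 ± 0.15). Ccl3 was at 222 and 241 TPM against 424 and 509 TPM (-1.005 ± 0.07), and Ccl4 at 89.1 and 76.2 TPM against 194 and 157 TPM (-1.07 ± 0.08). The difference was smaller for Ccl5, at 249.9 and 252 TPM against 421 and 354 TPM (-0.62 ± 0.08). Outside the CC family, Pf4, platelet factor 4, was at 917 and 875 TPM against 1781 and 1813 TPM (-1.004 ± 0.06). It is also on the erythroid and platelet marker list, whose sum was 921 and 879 TPM against 1787 and 1818 TPM. Of 23 chemokine genes on the list, 21 were tested, 9 were called lower and 1 higher, beside 0.848% and 0.424% of all genes. The list median was -0.62 against 0.04 over all genes. Cxcl10, induced by interferon, was at 13.6 and 11.2 TPM against 62.1 and 20.5 TPM (-1.46 ± 0.29), did not pass (limma adjusted p = 0.101), and the wild-type libraries lay far apart. Ccl22, Ccl6 and Cxcl16 differed by -0.03, -0.04 and -0.07, within their standard errors.

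The chemokine called higher was Cxcl13, the B cell attractant, which peritoneal macrophages are known to make. It was at 584 and 333 TPM with the Bgn label and 226 and 98.7 TPM in wild type (1.55 ± 0.14, limma adjusted p = 0.00738). Both Bgn-labelled values lay above both wild-type values, 2.58-fold and 3.38-fold in the 2 pairs, and within each label the library with biglycan was the lower. The Lum-labelled CpG libraries were at 804 and 401 TPM.

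The promoters of Cxcl3 and Cxcl2 are shown because both neighbouring genes were called lower and both hold the motif searched, which the window of Ptgs2, described next, does not (0 matches). Both are from RefSeq (GRCm38.p6), on the plus strand, at chr5:90785851-90786150 and chr5:90903649-90903948. Capitals mark a block of 11 bases in which the NF-kB consensus matches on both strands, in matches that overlap by all but 1 base, with the first base 73 (Cxcl3) and 97 (Cxcl2) bases before the start.
Cxcl3: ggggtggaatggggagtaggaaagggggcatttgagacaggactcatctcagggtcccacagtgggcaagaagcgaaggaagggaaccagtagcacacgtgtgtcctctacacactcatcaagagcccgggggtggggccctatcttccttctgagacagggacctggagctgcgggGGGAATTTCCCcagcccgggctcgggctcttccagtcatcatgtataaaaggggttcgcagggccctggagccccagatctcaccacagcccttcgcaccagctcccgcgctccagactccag
Cxcl2: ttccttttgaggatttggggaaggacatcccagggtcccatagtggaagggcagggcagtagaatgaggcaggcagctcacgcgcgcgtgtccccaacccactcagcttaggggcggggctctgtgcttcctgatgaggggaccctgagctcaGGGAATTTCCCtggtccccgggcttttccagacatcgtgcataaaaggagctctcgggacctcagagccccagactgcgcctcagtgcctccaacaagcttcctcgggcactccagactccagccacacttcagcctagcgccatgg
The NF-kB consensus, a motif of 10 letters searched on both strands, was found in 8.46% of all 32851 windows. It was in 4 of the 12 windows (33.3%) of the cytokine and chemokine genes called lower, which cover 10 of those 16 genes. Members of the same lists that were not called were not counted, so the part of list membership was not tested. Among all genes called lower the consensus was in 12 of 76 windows (15.8%), and among genes called higher in 1 of 26 (3.85%).

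Enzymes and cytokines of the inflammatory response were lower with the Bgn label. Ptgs2, the inducible cyclooxygenase of prostaglandin synthesis, was at 30.9 and 28.7 TPM with the Bgn label and 72.0 and 72.9 TPM in wild type. The 2 libraries of each label lay close together, and wild type was 2.33-fold and 2.54-fold higher (-1.25 ± 0.06, limma adjusted p = 0.00117). Nos2, the inducible nitric oxide synthase, was at 10.6 and 9.46 TPM against 31.3 and 27.4 TPM (-1.46 ± 0.11, limma adjusted p = 0.00403). Csf3, the granulocyte growth factor, was at 1.02 and 1.22 TPM against 3.32 and 4.42 TPM (-1.19 ± 0.12). Il1a was at 128 and 126 TPM against 212 and 253 TPM (-0.86 ± 0.08) and Il1b at 191 and 144 TPM against 283 and 286 TPM (-0.78 ± 0.11). The IL-1 receptor antagonist Il1rn was lower with them, at 177 and 149.6 TPM against 278 and 214 TPM (-0.58 ± 0.09). Il6 was at 7.72 and 9.12 TPM against 15.8 and 13.6 TPM (-0.74 ± 0.10, limma adjusted p = 0.0367).

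Of the 21 inflammatory cytokine genes on the list, all tested, 7 were called lower and 0 higher, beside 0.848% and 0.424% of all genes. Their median was -0.58. Tnf was below wild type in both pairs, at 218 and 262 TPM against 339 and 410.3 TPM, but missed the threshold (-0.64 ± 0.11, limma adjusted p = 0.0597). Il12b, a subunit of IL-12, did too, at 2.24 and 2.45 TPM against 4.73 and 6.15 TPM (-0.94 ± 0.16, limma adjusted p = 0.0616). Il10, the cytokine that restrains inflammation, was at 19.6 and 19.2 TPM against 17.3 and 15.8 TPM (0.22 ± 0.11, limma adjusted p = 0.499), and Tgfb1 at 202 and 210.1 TPM against 184 and 212 TPM (0.06 ± 0.07). Il10 was the 1 list member higher in both pairs. With 1 pair left, at most 1 cytokine gene and 1 chemokine gene were called lower, whichever library was left out. With the protein term dropped as well, 1 to 4 cytokine genes and 1 to 5 chemokine genes were, fewest without the Bgn-labelled library given biglycan and most without the wild-type library given biglycan.

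The levels of these genes without a stimulus are given side by side, since the untreated wild-type library stood apart in its mast cell genes. Cxcl3 was at 183 TPM in the untreated Bgn-labelled library and 675 TPM in the one given biglycan alone, at 276 TPM in untreated wild type and at 483 and 261 TPM in wild type given lumican or biglycan alone. The Bgn-labelled CpG values of Cxcl3, 225 and 271 TPM, lay above the untreated Bgn-labelled library, at 183 TPM. They lay below the Bgn-labelled library given biglycan alone, which stood apart as described above. Of the unstimulated wild-type values, 225 TPM lay below each, and 271 TPM lay among them. The wild-type CpG values lay above all the unstimulated values, the nearest being the Bgn-labelled library given biglycan alone. Ptgs2 was at 18.02 TPM in the untreated Bgn-labelled library and 21.03 TPM in the one given biglycan alone. It was at 12.9, 26.9 and 17.6 TPM in the same 3 wild-type libraries. Nos2 was at 9.79 and 13.3 TPM in the same 2 Bgn-labelled libraries, against 10.6 and 9.46 TPM after CpG. In wild type it was at 4.10, 12.8 and 11.2 TPM without a stimulus, against 31.3 and 27.4 TPM after CpG.

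Mast cell genes moved with these inflammatory genes across the labels compared. The Lum-labelled CpG libraries, whose mast cell sum was 17.4 and 18.5 TPM, held 77.3 and 77.9 TPM of Ptgs2, 79.0 and 86.1 TPM of Nos2, 485 and 706 TPM of Cxcl3 and 39.4 and 32.3 TPM of Ccl2. Those libraries were therefore low in mast cell genes and at or above wild type in Ptgs2, Nos2 and Ccl2, while 1 of their Cxcl3 values lay below and 1 between the wild-type values of the compared pairs. They differ from the Bgn-labelled ones in genotype label and, for 1 library, in protein. The part of the mast cell difference in the inflammatory difference of the Bgn label was not tested.

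**Figure D3:**
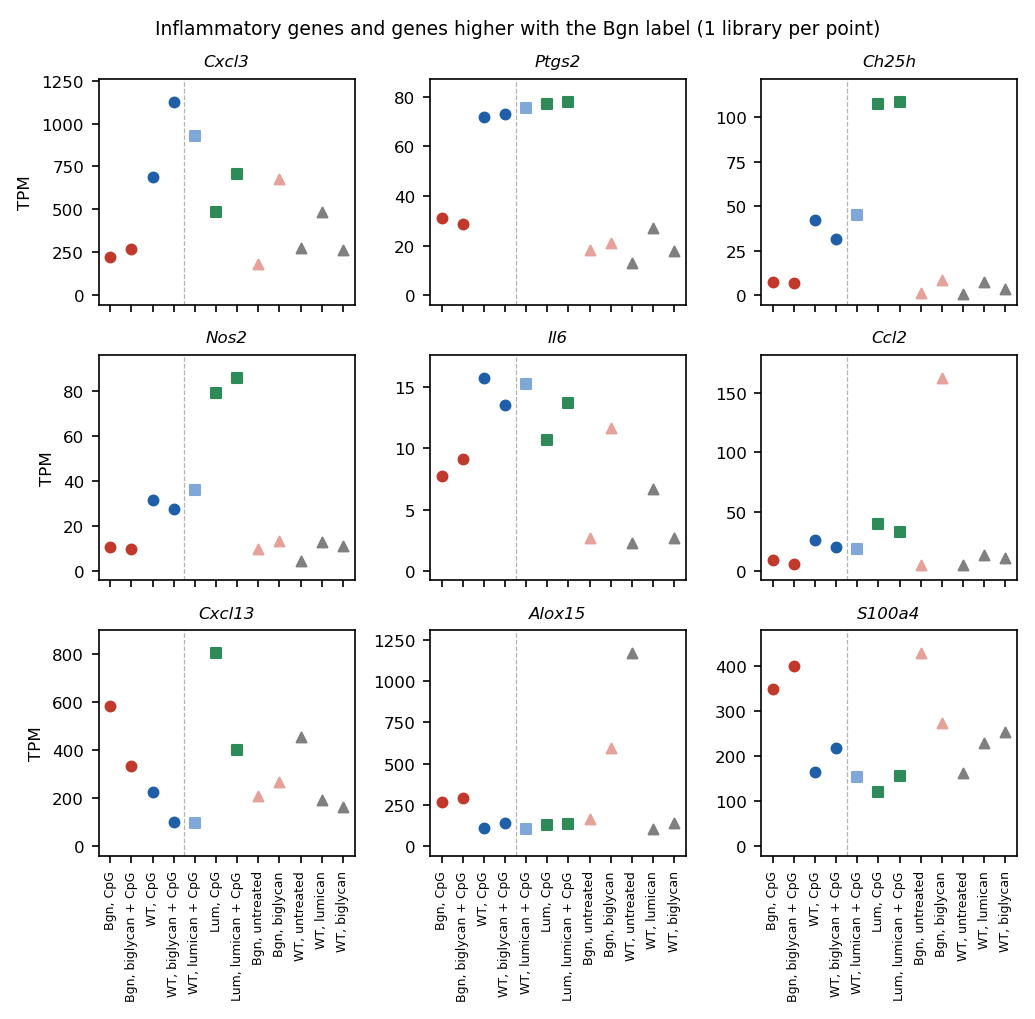
TPM on linear axes by library, 1 library per point, for 6 genes lower and 3 genes higher with the Bgn label, with the 4 compared libraries left of the dashed line. Cxcl3, Ptgs2, Ch25h, Nos2, Il6 and Ccl2 are lower in both Bgn-labelled CpG libraries than in all 3 wild-type CpG libraries, and Cxcl13, Alox15 and S100a4 are higher.

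Ch25h, which makes the oxysterol 25-hydroxycholesterol, had the largest fall among the named coding genes after those of mast cells and Hal. It was at 7.37 and 6.90 TPM with the Bgn label and 42.5 and 31.5 TPM in wild type, 5.77-fold and 4.57-fold higher in wild type (-2.21 ± 0.10, limma adjusted p = 0.00117). The Lum-labelled CpG libraries held 108 and 109 TPM. Unstimulated, Ch25h was at 1.40 TPM in the untreated Bgn-labelled library and 8.73 TPM in the one given biglycan alone. In wild type it was at 0.562 TPM untreated and at 7.25 and 3.29 TPM with lumican or biglycan alone. The Bgn-labelled CpG values were thus above the untreated Bgn-labelled library. They were below the Bgn-labelled library given biglycan alone, which stood apart as described above. Apoe, the apolipoprotein that accepts effluxed cholesterol, was the second gene called lower among 13 LXR target and cholesterol efflux genes, at 5212 and 5244 TPM against 6578 and 7005 TPM (-0.38 ± 0.05, limma adjusted p = 0.0352). The sterol exporters Abca1 and Abcg1 differed by 0.29 ± 0.10 and 0.19 ± 0.17 and did not pass. Of 23 tested genes of cholesterol synthesis, 0 were called, with a median of -0.09.

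Interferon-stimulated genes were mostly below wild type, with few calls, and the size depended on the pair. Ifit1, an antiviral RNA-binding protein, was at 19.05 and 16.9 TPM with the Bgn label and 88.5 and 26.3 TPM in wild type. The wild-type library without protein was the high one, so the difference was -2.16 without protein and -0.61 with biglycan, and did not pass (limma adjusted p = 0.152). Ifit3 showed the same split, at 18.7 and 21.1 TPM against 158 and 31.9 TPM, and so did Rsad2, which codes for viperin, at 15.7 and 14.9 TPM against 74.6 and 23.6 TPM. Irf7, the factor that amplifies the interferon response, was at 68.7 and 70.2 TPM against 267 and 119 TPM (-1.35 ± 0.26, limma adjusted p = 0.0894). All 47 tested genes of the list of 48 were below 0 as the mean of the pairs, and 42 were below 0 in both pairs. The median was -0.76, but 3 were called lower, beside 0.848% of all genes. The list median was -1.21 in the pair without protein and -0.34 in the pair with biglycan.

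The 3 interferon-stimulated genes that passed differed in both pairs. Gbp5, a guanylate-binding protein, was at 39.7 and 39.6 TPM against 87.6 and 66.2 TPM (-0.92 ± 0.11, limma adjusted p = 0.0207). Ifitm3, a membrane protein that blocks virus entry, was at 698 and 637 TPM against 1341 and 916 TPM (-0.73 ± 0.10). Ifi205 was at 171 and 171 TPM against 315 and 235 TPM (-0.67 ± 0.10). Ifi27l2a, off the list but named by the rule, was at 105 and 109 TPM against 391 and 283 TPM (-1.63 ± 0.14, limma adjusted p = 0.00591). Also off the list, Gbp6 was called lower (-0.90 ± 0.14, limma adjusted p = 0.0475) and Ifitm2 higher (0.46 ± 0.06, limma adjusted p = 0.0284). After median-of-ratios scaling, 0 of the 47 passed. In fits without the protein term that leave out 1 library, chosen after seeing the data, 26 of the list were called lower without the wild-type library given biglycan, and 0 without any 1 of the other 3, and the median was -0.34 without the wild-type library given CpG alone. The wild-type library given lumican and CpG was between the 2 others, with Ifit1 at 72.7 TPM and Irf7 at 213 TPM. Genes of the interferon alpha and beta families were not among the tested ones, and 0 of 10 tested genes upstream of them were called.

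Genes of the sensing pathway itself were not called. Tlr9 was at 4.67 and 4.19 TPM with the Bgn label and 4.07 and 4.96 TPM in wild type, values that overlap (-0.02 ± 0.18, limma adjusted p = 0.985). Its carrier Unc93b1 was at 432 and 459.6 TPM against 386 and 405 TPM (0.17 ± 0.07), and the adaptor Myd88 at 95.4 and 96.2 TPM against 104 and 96.9 TPM (-0.07 ± 0.07). Tlr8 had the largest rise of the list that missed the threshold, at 37.9 and 47.2 TPM against 27.5 and 27.0 TPM (0.61 ± 0.12, limma adjusted p = 0.101). The biglycan receptors Tlr2 and Tlr4 differed by -0.18 ± 0.08 and -0.12 ± 0.08, and did not pass. Of 30 TLR9 and endosomal signalling genes, 0 were called in either direction, with a median of -0.03. Of 23 NF-kB subunits and feedback genes, 1 was called lower, Socs1, an inhibitor of cytokine signalling, at 2.66 and 1.59 TPM against 5.25 and 3.41 TPM (-0.77 ± 0.10, limma adjusted p = 0.0319). The subunit genes Nfkb1, Rela and Relb differed by -0.16, -0.04 and -0.06, and the inhibitor gene Nfkbia by -0.18 ± 0.06. With 2 pairs, differences of this size could not be shown to be absent.

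**Figure D4:**
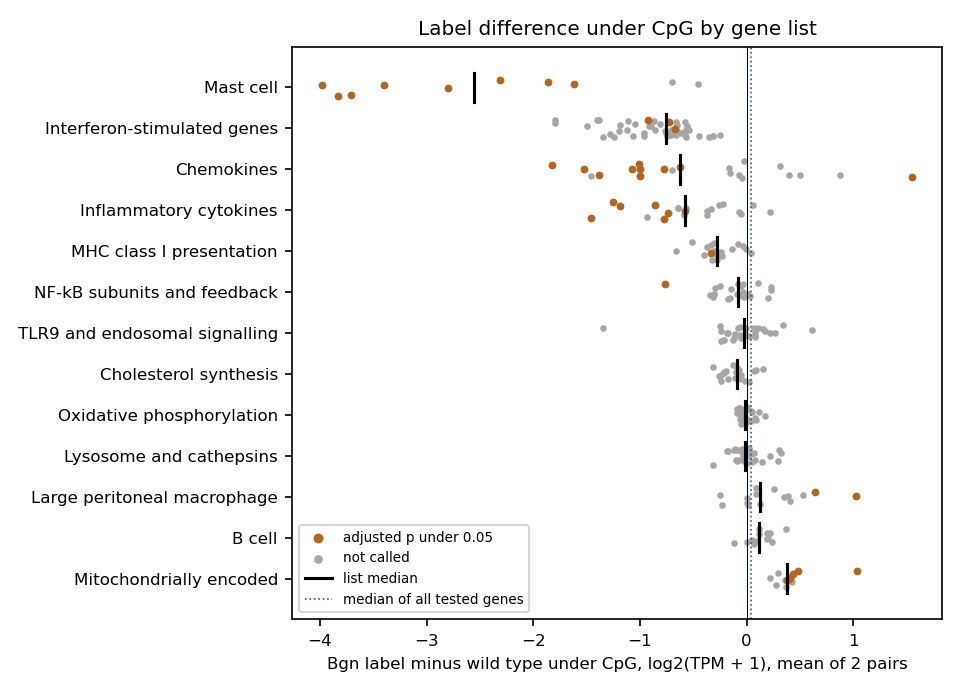
Log2(TPM + 1) difference of the Bgn label from wild type under CpG for the tested members of 13 gene lists, with called members in brown, the black bar at each list's median and the dotted line at the median of all tested genes, 0.04. The mast cell list reaches -3.98, the interferon-stimulated, chemokine and inflammatory cytokine medians lie between -0.76 and -0.58, and the mitochondrially encoded genes lie to the right of 0.

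Differences in antigen presentation and complement genes were mostly small. B2m, the light chain of MHC class I, was at 8266 and 8041 TPM against 10397 and 10140.2 TPM (-0.33 ± 0.05, limma adjusted p = 0.0432). It was the 1 call among 19 class I genes on the list, beside 0.848% of all genes called lower. Of the 19, 18 were below 0, with a median of -0.28. The class I genes H2-Q6 (-0.81 ± 0.09, limma adjusted p = 0.0149) and H2-Q7 (-0.65 ± 0.07, limma adjusted p = 0.0128), off the list, were called lower too. The peptide transporter gene Tap1 was at 48.2 and 46.7 TPM against 85.2 and 67.1 TPM and missed the threshold (limma adjusted p = 0.0616). Among 15 class II and co-stimulation genes, 0 were called. Of 20 tested complement and Fc receptor genes, 3 were called lower, beside 0.848% of all genes. Cfb, factor B of the alternative pathway, was at 3128 and 3002 TPM against 4319 and 4036 TPM (-0.45 ± 0.05). C3 was at 244 and 271 TPM against 349.8 and 376 TPM (-0.49 ± 0.07), and C2 at 10.8 and 13.5 TPM against 20.96 and 23.9 TPM (-0.84 ± 0.13). Vsig4, the complement receptor of resident macrophages, was the 1 called higher, at 9.66 and 9.39 TPM against 3.86 and 4.48 TPM (1.03 ± 0.14, limma adjusted p = 0.0359). The C1q genes C1qa, C1qb and C1qc differed by 0.23, 0.21 and 0.21 and did not pass.

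Matrix genes split in direction. Mmp13, a collagenase, was at 17.99 and 19.6 TPM with the Bgn label and 45.7 and 49.9 TPM in wild type (-1.30 ± 0.08, limma adjusted p = 0.0012). Timp1, an inhibitor of such proteases, was at 2.83 and 1.74 TPM against 9.61 and 8.66 TPM (-1.64 ± 0.14, limma adjusted p = 0.00538). Fn1, fibronectin, was higher, at 738 and 658 TPM against 463 and 455 TPM (0.60 ± 0.07, limma adjusted p = 0.0157). Loxl2, which crosslinks collagen, was at 6.82 and 7.82 TPM against 2.84 and 4.17 TPM (0.90 ± 0.13, limma adjusted p = 0.0392). With Bgn itself, 2 of 22 tested proteoglycan and matrix genes of the list of 30 were called higher and 2 lower, and the median was -0.02. Decorin (Dcn), the closest relative of biglycan among them, was at 4.17 and 3.66 TPM against 5.10 and 5.84 TPM (-0.39 ± 0.15, limma adjusted p = 0.38). Mesothelial and fibroblast markers, which include Dcn, summed to 5.22 and 4.44 TPM against 6.997 and 7.85 TPM.

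Among genes higher with the Bgn label, several are known from resident or alternatively activated macrophages. Alox15, the 12/15-lipoxygenase (chromosome 11, 70344152 to 70352031, minus strand), was at 268 and 292 TPM with the Bgn label and 107 and 141 TPM in wild type (1.18 ± 0.09, limma adjusted p = 0.00403). All 3 wild-type CpG libraries were below both Bgn-labelled ones, with the third at 105 TPM, but untreated wild type held 1168 TPM. Retnla, another gene of the alternative activation list, went the other way, at 44.0 and 37.8 TPM against 103 and 101 TPM (-1.31 ± 0.09, limma adjusted p = 0.00223). Arg1 was at 18.4 and 7.36 TPM against 19.2 and 7.20 TPM (-0.01 ± 0.12), so that 1 of the 11 tested list members was called higher and 1 lower. Cd5l, a survival factor secreted by macrophages, was at 37.9 and 34.1 TPM against 25.6 and 20.02 TPM (0.64 ± 0.10, limma adjusted p = 0.0462). With Vsig4, it made 2 of 15 large peritoneal macrophage markers called higher, beside 0.424% of all genes, and 0 lower. The list median was 0.12, and after median-of-ratios scaling 0 were called. Eosinophil markers hold Alox15 too, and their defining genes Epx and Prg2 were at 0 TPM in all 4 libraries.

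Other genes with large rises act in signalling, the cytoskeleton and RNA control. Rgs2, which limits G protein signalling, was at 19.2 and 18.1 TPM against 8.33 and 7.19 TPM (1.17 ± 0.13, limma adjusted p = 0.0165). Cpeb1, which binds the tails of mRNAs, was at 20.8 and 26.5 TPM against 8.76 and 10.5 TPM (1.21 ± 0.14). S100a4, a calcium-binding protein, was at 349 and 400.2 TPM against 165 and 219 TPM (0.97 ± 0.08, limma adjusted p = 0.00643). In each of these genes both Bgn-labelled libraries were above both wild-type ones, as for every gene called higher. Entpd1, the ectonucleotidase CD39, was at 27.5 and 33.3 TPM against 16.97 and 15.5 TPM (0.86 ± 0.13). Tjp1, a tight junction protein, was at 11.7 and 11.7 TPM against 6.18 and 5.496 TPM (0.90 ± 0.14). The LIM protein gene Crip1 was at 573 and 552 TPM against 353 and 318 TPM (0.74 ± 0.09). Tatdn3, Apol7c and Lrg1 were higher by 1.31 ± 0.15, 1.16 ± 0.14 and 0.73 ± 0.11.

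Transcripts encoded by the mitochondrial genome were higher with the Bgn label, a group chosen after its values were seen. Summed over 13 genes, they were at 45975 and 49616 TPM with the Bgn label and at 35690 and 34755 TPM in wild type. All 13 were higher in both pairs, with a median of 0.38, where 60.2% of all genes had the same sign in both pairs. Of the 13, 6 were called higher, beside 0.424% of all genes. The count ranged from 0 to 11 over the alternatives, with 11 called at a mean of at least 5 TPM or with the 4 CpG libraries alone, 1 with the 7 CpG libraries, and 0 after median-of-ratios scaling, where the median was 0.33. mt-Co2, a subunit of cytochrome c oxidase, had the largest difference, at 5840.1 and 6811 TPM against 3105 and 3047 TPM (1.04 ± 0.10, limma adjusted p = 0.0078). Its level is uncertain, since all 31-base words of the pseudogene Gm28661 occur in mt-Co2 and Gm28661 was lower, at 942 and 583 TPM against 2862 and 2622 TPM (-1.88 ± 0.15). The 2 together were at 6782 and 7394 TPM with the Bgn label and at 5967 and 5670 TPM in wild type, a smaller difference than for mt-Co2 alone. Of the 25 nuclear genes of oxidative phosphorylation, 0 were called, with a median of -0.02. The third wild-type CpG library, given lumican, held 5609.8 TPM of mt-Co2 and 1017 TPM of Gm28661, near the Bgn-labelled values, so this split between the 2 genes was also found in a wild-type library. Leaving out any 1 of the 4 libraries left 0 of the 6 calls.

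Other pseudogenes among the calls share sequence with other genes and are uncertain. Gm14219 was at 0 and 0 TPM with the Bgn label and 25.5 and 27.3 TPM in wild type, and 48.8% of its 31-base words occur in Gm11331, which was higher, at 49.7 and 55.4 TPM against 25.5 and 16.7 TPM. Gm14219 was at 0 TPM in the third wild-type CpG library too. Summed, the 2 were at 49.7 and 55.4 TPM against 51.0 and 44.0 TPM. Rps2-ps10, a ribosomal protein pseudogene that shares 82.1% of its words with Rps2, was at 1.82 and 2.34 TPM against 58.6 and 61.0 TPM (-4.31 ± 0.23). It was at 1.99 TPM in the untreated Bgn-labelled library and at 47.9 and 42.5 TPM in the Lum-labelled CpG libraries, and at 40.7 TPM in the Bgn-labelled library given biglycan alone. Of the 147 calls, 9 were immunoglobulin segments, 6 higher and 3 lower. The B cell list had 0 calls among 13 tested genes, a median of 0.12 and sums of 1712 and 1607 TPM against 1475 and 1439 TPM.

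Most other pathways showed few calls. Mki67, a proliferation marker, was the 1 call among 27 tested cell cycle genes, at 6.74 and 6.13 TPM against 11.5 and 14.2 TPM (-0.89 ± 0.12, limma adjusted p = 0.0357). Acsl1, which activates fatty acids, was the 1 call among 16 fatty acid genes, at 166 and 179 TPM against 236 and 271 TPM (-0.55 ± 0.07). Prdx6, a peroxidase, was the 1 call among 23 oxidative stress genes, at 773 and 813 TPM against 1105 and 1438 TPM (-0.67 ± 0.11). Clec4n, the lectin dectin-2, was the 1 of 24 scavenger and lectin receptors called lower, at 835 and 801 TPM against 1109 and 1227 TPM (-0.51 ± 0.07). The lists of immediate early factors, unfolded protein response, heat shock, glycolysis, lysosome, iron and coagulation genes had 0 calls, with medians between -0.16 and 0.04. T and NK cell markers summed to 9.17 and 12.8 TPM against 9.91 and 13.9 TPM, and neutrophil markers to 438 and 399 TPM against 403 and 419 TPM.

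The same labels were compared under LPS, in 4 libraries whose values do not enter the CpG difference but come from the same labelled cells. They are in the same fit, and both comparisons use the same pooled spread for each gene. Shared calls are therefore not an independent repeat. Under LPS limma called 56 genes (0.485%), 13 higher and 43 lower with the Bgn label. Both comparisons called 36 genes, each with the same sign, which is 24.5% of the CpG calls and 64.3% of the LPS calls. The tryptases, chymases, Cpa3, Tph1, Hal and Retnla are among them, with Hal at -2.62 and Retnla at -1.45 under LPS. Of the rises, Cpeb1 (1.56), S100a4 (0.85), Apol7c (1.17) and Loxl2 (0.97) were called under LPS too. Cxcl5 was called under LPS as well, at -0.92.

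The inflammatory lists differed between the stimuli in their medians. Under LPS the medians were -0.10 for chemokines, -0.03 for inflammatory cytokines and 0.08 for interferon-stimulated genes. The Bgn label effect was tested for a difference between CpG and LPS, and 6 genes passed (0.0519%), all of them lower with the Bgn label under CpG. Ptgs2 was at 2397 and 2443 TPM with the Bgn label and 2334 and 2401 TPM in wild type under LPS, so its effect differed by -1.29 ± 0.09 (limma adjusted p = 0.023). Cxcl3 was at 7409 and 9187 TPM against 7551 and 10231 TPM under LPS and its effect differed by -1.74 ± 0.15 (limma adjusted p = 0.0377). Mmp13, at 362 and 426 TPM against 406 and 427 TPM, had an effect that differed by -1.22 ± 0.11 (limma adjusted p = 0.0377). Hdc stood at 153 and 136 TPM against 128 and 126 TPM under LPS, far above its CpG levels in every library, and its effect differed by -2.04 ± 0.13 (limma adjusted p = 0.023). The other two were the pseudogenes Gm14219 and Gm28661. For Ch25h, the difference between the stimuli was -1.50 ± 0.15 and missed the threshold (limma adjusted p = 0.0593), as it did for Ccl2 (-1.09 ± 0.20) and Cxcl13 (0.77 ± 0.20). LPS levels of Ptgs2, Cxcl3 and Ccl2 were many times the CpG levels, and a difference in log2 does not weigh that. Median-of-ratios scaling left 0 of the 6 calls, and so did leaving out any 1 of the 4 CpG libraries, while all 6 were called without any 1 of the 4 LPS libraries.

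**Figure D5:**
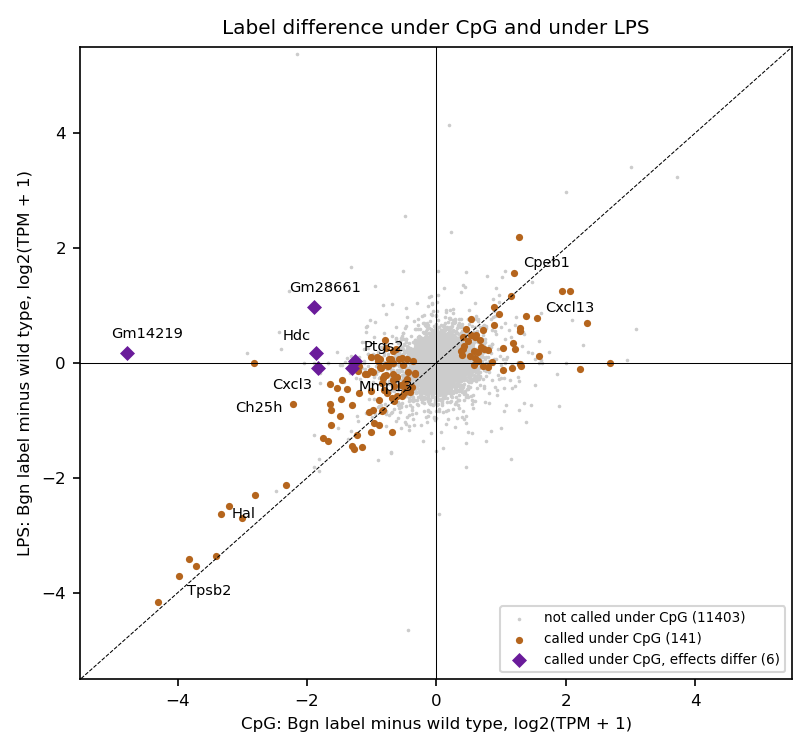
Log2(TPM + 1) difference of the Bgn label from wild type for each of 11550 genes, under CpG on the x axis and under LPS on the y axis, with the dashed line at equal effects. Genes called under CpG are brown, the 6 whose effects differ between the stimuli are purple diamonds between -0.09 and 0.98 on the LPS axis, and the mast cell tryptase Tpsb2 and Hal lie near the dashed line.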

How the data were processed

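The files hold TPM per transcript for 21 libraries, deposited by the authors; kallisto 0.44.0, bcl2fastq 1.8.4 and build GRCm38 stand in the submitters' processing notes. A further deposited column, a score, holds the row sum of the TPM values and entered no result. Of 89562 transcripts, 5423 without a gene name were matched by identifier to the reference annotation, 1351 that could not be were left out, and the rest were summed to 23544 genes.

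A gene was tested where its TPM averaged 1 or more over 8 libraries (Bgn label and wild type, without and with biglycan, under CpG and LPS). Values of log2(TPM + 1) were fitted in R (version 4.3.3) by limma, version 3.58.1. The model had a block for each stimulus and protein and a Bgn effect for each stimulus, with 2 residual degrees of freedom, an intensity trend and Benjamini-Hochberg adjustment at 0.05. The code was tested on simulated data. Sums and plots were made with matplotlib 3.10.9, numpy 2.4.6 and pandas 2.3.3, under Python 3.11.15. Promoters came from RefSeq, GRCm38.p6.

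Named were Bgn, Lum and Tlr9, the 15 largest called rises and falls with at least 5 TPM in the higher pair, the 6 genes whose effects differed most between stimuli, and, from each of 36 lists, its first 3 measured genes and the 4 with the largest differences. Not every eligible gene is reported here, and other called list members were named after their values were seen. Members and lists were chosen with earlier results of these data known. Alternatives were other pseudocounts, filters, scalings, sets of libraries and model terms, and leaving out each library.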

Additional observations from a re-analysis of the deposited data

Results flagged for a closer look

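The test of a difference in the Bgn label effect between CpG and LPS passed for 6 genes, all with a lower effect under CpG. Cxcl3 differed by -1.74 (limma adjusted p = 0.0377), Ptgs2 by -1.29 and Mmp13 by -1.22, each lower with the Bgn label under CpG and with values that overlap between the labels under LPS. Hdc differed by -2.04, with 153 and 136 TPM in the Bgn-labelled LPS libraries and 128 and 126 TPM in the wild-type ones. Gm14219 differed by -4.95 and Gm28661 by -2.86, and both share sequence with other genes. With 2 pairs per stimulus, 1116 genes had an unadjusted p under 0.05.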

How the results depend on the processing

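Under CpG, 36 of 37 named genes kept their direction in up to 21 settings. The exception was Tlr9, not called in any, which ranged from -0.20 to 0.16, at 0.04 and 0.10 in the fits without the protein term that leave out a library given biglycan. The B cell median ranged from -0.014 to 0.21 in such fits. The 49 higher and 98 lower genes became 0 and 0 with no filter (1899 at an unadjusted p under 0.05), 12 and 62 with median-of-ratios scaling, 145 and 153 with the 4 CpG libraries alone, 20 and 54 with no protein term, and 4 and 21 without a trend. Quantile normalization gave 30 higher, and all 14 stimulated libraries gave 189 lower. Leaving out 1 library gave 0 to 10 higher and 0 to 78 lower, where 1 library then stands for its label in a pair and is assumed to vary like the others. For the difference between stimuli, the 6 lower genes became 2 with a pseudocount of 5 and 0 with no filter, median-of-ratios scaling or no trend. Higher and lower genes were 2 and 16 at a mean of 5 TPM, 5 and 24 with coding genes only, 9 and 31 with all 14 stimulated libraries, 1 and 13 with robust moderation, and 0 to 19 and 0 to 29 with 1 library left out. The causes were not tested. Depth is not given, so no counting error is attached to low TPM values.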

Other observations

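Genes of arginine and itaconate metabolism were among those called lower with the Bgn label, chosen after their values were seen. Slc7a2, which imports arginine, was at 341 and 316 TPM against 572 and 633 TPM in wild type (-0.87 ± 0.07). Ass1, which rebuilds arginine from citrulline, was at 252 and 254 TPM against 354 and 353 TPM (-0.48 ± 0.07). Acod1, which makes itaconate, was at 707 and 876 TPM against 932 and 1094 TPM (-0.36 ± 0.05). Inhba, a subunit of activin A, was at 6.66 and 5.42 TPM against 15.4 and 17.4 TPM (-1.31 ± 0.13). For all 4 genes both Bgn-labelled libraries were below both wild-type ones. The labels did not overlap in any of the 147 called genes, nor in 39.9% of all genes.

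Anxa1, which codes for annexin A1 and restrains inflammation, was called higher, at 241 and 267 TPM against 171 and 178 TPM (0.54 ± 0.07). Single immunoglobulin segments went both ways. Igkv12-44 was at 39.8 and 32.1 TPM against 7.29 and 10.1 TPM, and Ighv12-3 at 41.6 and 34.4 TPM against 97.8 and 87.3 TPM.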
